A study of Mus musculus with 3 samples.

Results

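Smooth muscle contractile genes are described here across the cells of the mouse fracture callus. They were 10 named genes, *Acta2*, *Tagln*, *Actg2*, *Myl9*, *Cnn1*, *Myh11*, *Tpm1*, *Tpm2*, *Des* and *Lmod1*, and each matched 1 gene symbol among the 32285 genes of the deposited matrices. The study sequenced single cells from femoral fracture callus of untreated C57BL/6 mice at day 7, day 10 and day 14 after fracture, with 1 droplet library for each day. The callus was digested with collagenase, and live CD45-CD31-TER119- cells were sorted, a gate meant to leave out blood, endothelial and red cells, so that mesenchymal cells remain. The age of the mice and the number of mice in each library are not given in the sources used here. There were no replicate libraries, so no value below carries a test, day and library cannot be told apart, and every interval is a 95% interval that covers counting error only.

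Within limits on genes, mitochondrial UMIs and hemoglobin UMIs, 7017 cells were kept at day 7, 6593 at day 10 and 9853 at day 14. They held 55187609, 113618580 and 154573230 UMIs (unique molecular identifiers, each standing for 1 captured RNA molecule). Of the deposited barcodes, 91 occurred in 2 libraries and 5 in all 3. The day 7 library was mostly blood cells despite the CD45- gate, since 6546 of its 7017 kept cells had at least 1 UMI of *Ptprc*, the gene of CD45, and were in none of the groups described next.

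A smooth muscle cell contracts when myosin pulls on actin filaments. *Acta2* and *Actg2* encode the smooth muscle actins, *Myh11* the smooth muscle myosin heavy chain, and *Myl9* a regulatory light chain whose phosphorylation switches the motor on. Transgelin (*Tagln*), calponin (*Cnn1*) and the tropomyosins (*Tpm1*, *Tpm2*) lie along the actin filament, leiomodin (*Lmod1*) starts new filaments, and desmin (*Des*) is the intermediate filament that ties the apparatus together. Pericytes, the cells that wrap small vessels, carry parts of this apparatus, and so do myofibroblasts. Many of these genes are targets of serum response factor, which binds a short element called the CArG box.

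Of the 10 genes, 7 had a window in the RefSeq promoter table for GRCm38.p6, which covers 250 bases before to 50 bases after a gene start. *Tagln*, *Actg2* and *Myh11* had none. The window was searched for the CArG box of 10 bases, which reads the same way on both strands, and no other motif was searched. An exact box was found in 1 of the 7 windows, that of *Myl9*, against 1.63% of all 32851 windows. A box that was exact or differed by 1 base was found in 4 of the 7 windows, against 21.1% of all windows. The stretches that hold them are given with the box in capitals, because serum response factor is the known regulator of many of these genes. No such box was found in the windows of *Cnn1*, *Tpm2* and *Des*. A match describes letters, not a bound site, and the absence of one says only that these letters are not in the window.

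*Acta2*, first stretch: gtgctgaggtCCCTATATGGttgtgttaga
*Acta2*, second stretch: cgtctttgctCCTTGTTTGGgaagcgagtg
*Myl9*, first stretch: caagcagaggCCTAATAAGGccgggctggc
*Myl9*, second stretch: cattcttctgCCTTGTAAGGccgggcggcc
*Tpm1*, first stretch: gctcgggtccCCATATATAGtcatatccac
*Tpm1*, second stretch: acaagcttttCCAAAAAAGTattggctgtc
*Lmod1*, first stretch: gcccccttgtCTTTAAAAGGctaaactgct
*Lmod1*, second stretch: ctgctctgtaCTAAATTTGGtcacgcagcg

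The *Acta2* stretches lie on the minus strand at chr19:34255438-34255467 and chr19:34255388-34255417 of GRCm38, with the box starting 84 and 34 bases before the RefSeq start. GENCODE M21 starts 1 *Acta2* transcript further upstream and places both stretches in its untranslated first part. The *Myl9* stretches lie on the plus strand at chr2:156775293-156775322, which holds the exact box 161 bases before the start, and at chr2:156775355-156775384, 99 bases before it. The *Tpm1* stretches lie on the minus strand at chr9:67049415-67049444 and chr9:67049274-67049303, 221 and 80 bases before the start, and the second is in an untranslated exon of 2 GENCODE transcripts. The *Lmod1* stretches lie on the plus strand at chr1:135324614-135324643 and chr1:135324639-135324668, 189 and 164 bases before the start. Both *Myl9* stretches, the first *Tpm1* stretch and both *Lmod1* stretches lie in no GENCODE gene.

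The 10 genes were read in 4 groups of cells, each cut at 20 UMIs per 10000 UMIs of the cell. *Rgs5*-high cells passed that level for the pericyte gene *Rgs5*, *Aspn*-high cells for *Aspn*, a matrix proteoglycan gene of fibroblastic progenitors, and *Cnmd*-high cells for the cartilage gene *Cnmd*. *Aspn*-high cells were divided by whether they had a UMI of *Scx*, a tendon transcription factor, and are called *Scx*+ and *Scx*-. There were 70 *Rgs5*-high cells at day 10 and 192 at day 14, and 0 of the 7017 cells at day 7, which allows a share of up to 0.0428%. *Scx*+ cells numbered 11, 864 and 1990 at days 7, 10 and 14, *Scx*- cells 7, 456 and 1119, and *Cnmd*-high cells 56, 2376 and 1335. Cells past more than 1 of these levels, 146 at day 10 and 90 at day 14, were set apart. Median UMIs per cell at days 10 and 14 were 12521.5 and 9540 in *Rgs5*-high cells, 16351.5 and 15589.5 in *Scx*+ cells, 12727.5 and 12045 in *Scx*- cells, and 19320 and 21215 in *Cnmd*-high cells.

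The *Rgs5*-high cells carried pericyte genes. Apart from *Rgs5*, which chose the cells, a pericyte list held 9 genes, of which all but *Cspg4* were highest in them among the 4 groups on both days. *Cspg4* differed, with 303.7 and 192.5 CPM in *Rgs5*-high cells against 376.6 and 320.2 CPM in *Cnmd*-high cells. Their level of *Rgs5* was 9908 CPM at day 10 and 10781 CPM at day 14, where CPM is a gene's UMIs per 1000000 UMIs summed over the cells of a group. *Higd1b* stood at 454 and 410.0 CPM and the potassium channel gene *Kcnj8* at 159 and 223 CPM, and the *Scx*+ cells had 0.50 or less of each at day 10. Few cells lay near the cut of *Rgs5* itself, with 5 cells at 10 to 20 and 9 at 20 to 40 *Rgs5* UMIs per 10000 at day 10, and 15 and 23 at day 14, while the median of the group was 104 and 105. With the cuts of all 3 genes at 10, the group fell to 46 and 134 cells, since more cells also passed the *Aspn* or *Cnmd* cut. A list of 5 *Postn* progenitor genes, *Aspn* among them, added up to 2918 and 1906 CPM in *Rgs5*-high cells, against 14159 and 13743 CPM in *Scx*+ cells. Endothelial genes added up to 59.2 and 37.9 CPM in the *Rgs5*-high cells, mainly *Emcn*, and *Cdh5* was at 0 on both days. The bone gene *Ibsp* was 122.8 CPM in *Rgs5*-high cells at day 10 and 2085 CPM at day 14, and the cartilage gene *Col2a1* 413 and 1313 CPM. The part of these genes in the differences between days was not tested. At day 14 the summed level of 5 hematopoietic genes was 7763 CPM in *Rgs5*-high cells against 2.2 CPM at day 10 and 169 to 514 CPM in the other 3 groups of day 14. It came from 8 of the 192 cells, and without them *Acta2* was 4259 CPM and *Myh11* 260.0 CPM in the group, close to the values given next.

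*Acta2*, the smooth muscle alpha-actin, was highest in *Rgs5*-high cells and lower in each of the following groups. At day 10 its level was 4577 CPM (4439 to 4718) in *Rgs5*-high cells, 1056 (1039 to 1074) in *Scx*+ cells, 398 (382 to 415) in *Scx*- cells and 10.7 (9.79 to 11.7) in *Cnmd*-high cells. At day 14 the levels were 4163 CPM (4075 to 4251), 662 (653 to 672), 266 (257 to 274) and 15.3 (13.9 to 16.8) in the same order. No neighbouring intervals overlapped on either day. *Rgs5*-high cells were thus 4.33-fold (4.18 to 4.48) above *Scx*+ cells at day 10 and 6.28-fold (6.13 to 6.45) at day 14.

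*Actg2*, the smooth muscle gamma-actin, followed the same order. Its level at day 10 was 490.1 CPM in *Rgs5*-high cells, 134 in *Scx*+ cells, 38.6 in *Scx*- cells and 1.13 in *Cnmd*-high cells, and at day 14 it was 366, 120.0, 43.1 and 1.60 CPM. The difference between *Rgs5*-high and *Scx*+ cells was 3.66-fold (3.29 to 4.06) and 3.05-fold (2.82 to 3.30). Of the 447 *Actg2* UMIs of *Rgs5*-high cells at day 10, 137 were in 1 cell, so the day 10 values rest in part on that cell.

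*Myh11*, the motor itself, was held almost wholly by the *Rgs5*-high cells. It had 222 UMIs there at day 10 and 528 at day 14, which are 243 CPM (212 to 278) and 253 CPM (232 to 276). In *Scx*+ cells it had 0 UMIs in 864 cells at day 10, which allows up to 0.347% of cells with a UMI, and 4 UMIs in 1990 cells at day 14, in *Scx*- cells 1 and 2 UMIs, and in *Cnmd*-high cells 3 and 4 UMIs. With 3 counts over the whole group taken as the floor, the *Rgs5*-high level was 1132-fold above that of *Scx*+ cells at day 10. The lower end of the interval of that ratio was 913-fold. At day 14 the *Rgs5*-high level was 1917-fold (744 to 7063) above that of *Scx*+ cells. *Rgs5*-high cells were a small part of the kept cells and held 87.1% of all *Myh11* UMIs at day 10 and 88.6% at day 14. Most of the others, 10.6% and 7.38%, were in cells that belonged to none of the named groups.

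*Myl9*, the regulatory light chain, did not follow its heavy chain and was spread like the actins. Its level at day 10 was 888 CPM (828 to 951) in *Rgs5*-high cells, 303 (293 to 312) in *Scx*+ cells, 149 (139.6 to 159) in *Scx*- cells and 5.92 (5.24 to 6.67) in *Cnmd*-high cells. At day 14 it was 780.2, 268, 143 and 6.74 CPM. *Rgs5*-high cells were 2.94-fold (2.72 to 3.17) and 2.91-fold (2.75 to 3.07) above *Scx*+ cells.

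**Figure D1:**
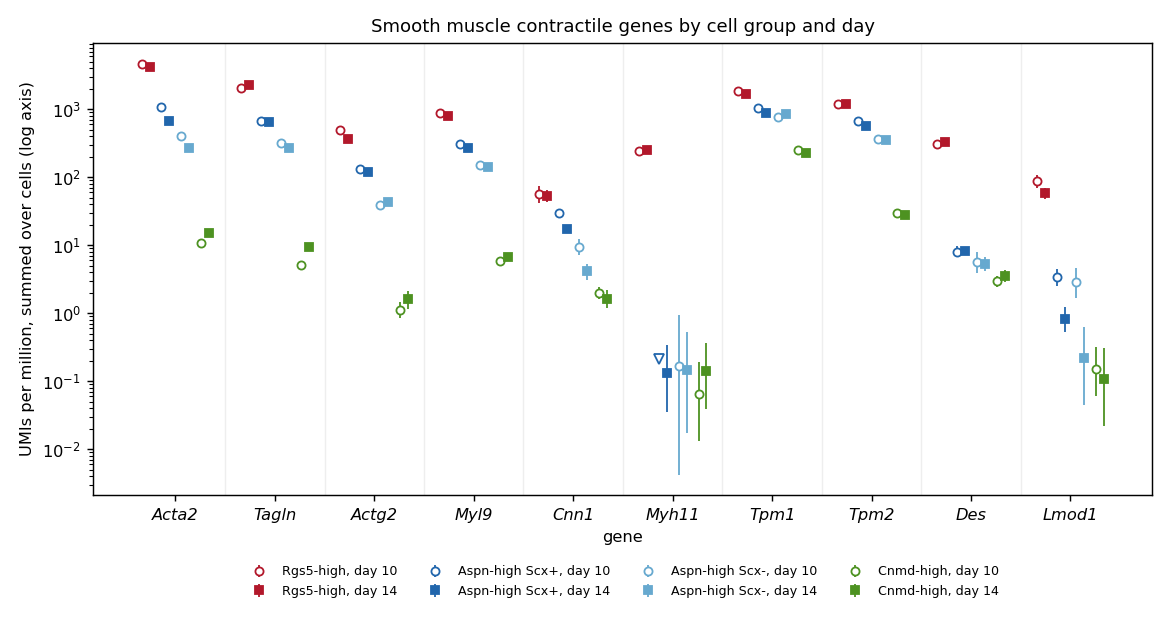
Level of the 10 genes in CPM (log axis) in *Rgs5*-high, *Scx*+, *Scx*- and *Cnmd*-high cells, with an open circle for day 10, a filled square for day 14, bars for the 95% counting interval and an open triangle for the 3-count floor where no UMI was seen. *Acta2* steps down from 4577 to 10.7 CPM across the groups at day 10, whereas *Myh11* drops from 243 CPM in *Rgs5*-high cells to under 1 CPM in the other 3 groups.

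*Tagln*, which encodes the actin-binding protein transgelin, was 2016 CPM (1925 to 2111) in *Rgs5*-high cells at day 10, 675 (662 to 689) in *Scx*+ cells, 318 (303 to 332) in *Scx*- cells and 5.12 (4.48 to 5.82) in *Cnmd*-high cells. At day 14 it was 2289, 645, 270.4 and 9.40 CPM. *Rgs5*-high cells were 2.99-fold (2.84 to 3.14) and 3.55-fold (3.44 to 3.66) above *Scx*+ cells, a smaller difference than for *Acta2* on both days.

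*Cnn1*, the gene of calponin, which slows the myosin motor, was seen in few cells of every group. At day 10 it was 55.9 CPM (41.6 to 73.5) in *Rgs5*-high cells and 30.2 (27.4 to 33.3) in *Scx*+ cells, 1.85-fold apart (1.35 to 2.48). At day 14 it was 53.3 CPM (43.8 to 64.2) and 17.3 (15.8 to 18.8), 3.09-fold apart (2.49 to 3.80). *Scx*- cells had 9.40 and 4.13 CPM and *Cnmd*-high cells 1.98 and 1.63 CPM. Within the *Rgs5*-high group *Cnn1* was in few cells, since 58 of 70 cells at day 10 and 156 of 192 at day 14 had no UMI of it. At day 10, 1 cell held 19 of the 51 *Cnn1* UMIs of the group.

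The tropomyosins differed least between *Rgs5*-high and *Scx*+ cells. *Tpm2* was 1185 CPM in *Rgs5*-high cells, 661 in *Scx*+ cells, 362 in *Scx*- cells and 29.3 in *Cnmd*-high cells at day 10, and 1182, 560.5, 346 and 27.4 CPM at day 14. *Tpm1* was 1839, 1024, 777 and 253 CPM at day 10 and 1654, 876, 846 and 229.9 CPM at day 14. *Tpm1* also makes non-muscle tropomyosins from the same gene, which counting at the 3′ end cannot tell apart, and the chondrocytes had it too. *Rgs5*-high cells were 1.80-fold (1.71 to 1.89) and 1.89-fold (1.82 to 1.96) above *Scx*+ cells for *Tpm1*, and 1.79-fold (1.68 to 1.91) and 2.11-fold (2.02 to 2.20) for *Tpm2*.

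*Des*, the gene of desmin, marked the *Rgs5*-high cells. It was 308 CPM (273 to 346) there at day 10 and 334 (309 to 359) at day 14. *Scx*+ cells had 8.02 and 8.20 CPM, *Scx*- cells 5.71 and 5.28 CPM, and *Cnmd*-high cells 2.94 and 3.55 CPM. The *Rgs5*-high level was 38.4-fold (30.7 to 48.2) and 40.7-fold (35.2 to 47.3) that of *Scx*+ cells.

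*Lmod1*, whose protein starts actin filaments in smooth muscle, had the same pattern. It was 87.7 CPM (69.6 to 109) in *Rgs5*-high cells at day 10 and 57.6 (47.8 to 68.9) at day 14. *Scx*+ cells had 3.37 CPM (2.47 to 4.48) and 0.826 CPM (0.535 to 1.22), and *Scx*- cells had 2.85 CPM at day 10 and 3 UMIs at day 14. The *Rgs5*-high level was 26.0-fold (17.9 to 38.2) and 69.7-fold (45.0 to 112) that of *Scx*+ cells. *Cnmd*-high cells had 7 UMIs at day 10 and 3 at day 14.

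Counted over the list, *Rgs5*-high cells exceeded *Scx*+ cells at least 2-fold for 7 of 10 members at day 10, all but *Cnn1*, *Tpm1* and *Tpm2*, and for 9 of 10 at day 14, all but *Tpm1*. Among all genes with at least 20 UMIs in both groups together, 12.1% of 12062 were at least 2-fold higher at day 10 and 14.3% of 13280 at day 14, while 13.1% and 12.7% were at least 2-fold lower, where no member was. The median log2 ratio of the members was 1.72 at day 10 and 1.73 at day 14, and that of all tested genes 0.03 and 0.07. Over *Scx*- cells, 10 of 10 members were at least 2-fold higher at day 10 and 9 of 10 at day 14, the exception being *Tpm1* at 1.96-fold (1.88 to 2.03), against 10% and 11% of all genes higher and 15% and 13.9% lower. Over *Cnmd*-high cells, 10 of 10 members were at least 2-fold higher on both days, against 30.2% and 24.8% of all genes higher and 10.3% and 11% lower. The smallest of those ratios was that of *Tpm1*, 7.28-fold (6.91 to 7.66) and 7.19-fold (6.90 to 7.50), while *Acta2* was 427-fold and 272-fold higher. *Myh11* passed the limit of 20 UMIs through its *Rgs5*-high UMIs alone in each of these comparisons, and so did *Lmod1* over *Scx*- and *Cnmd*-high cells.

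**Figure D2:**
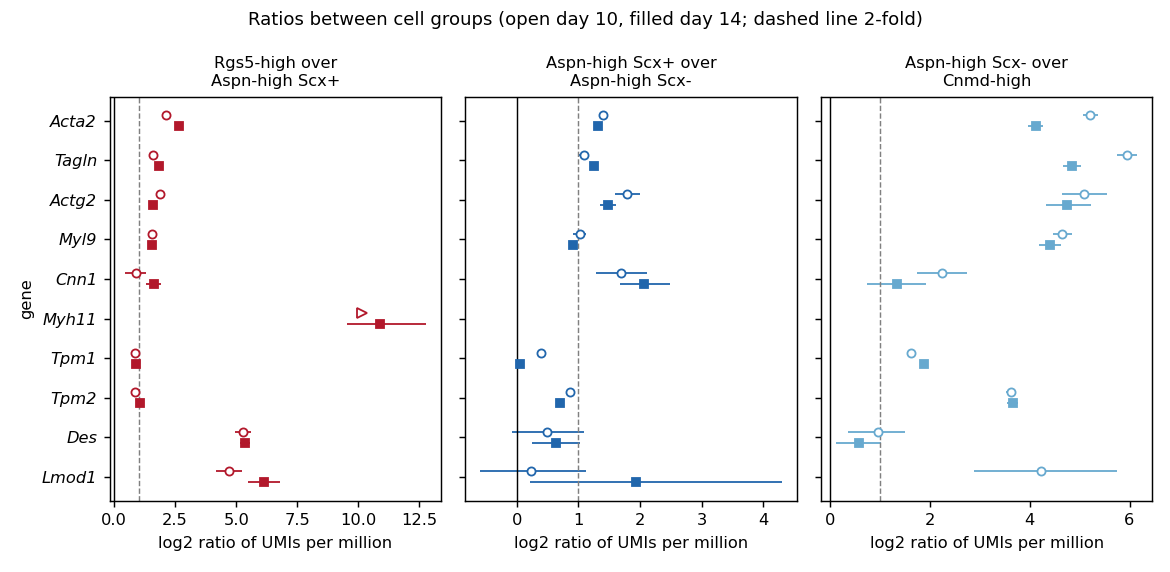
Log2 ratio of summed CPM with its 95% counting interval for *Rgs5*-high over *Scx*+ cells, *Scx*+ over *Scx*- cells and *Scx*- over *Cnmd*-high cells at day 10 and day 14. Dashed lines mark 2-fold, a triangle marks a ratio whose lower group had 0 UMIs, read as the 3-count floor, and ratios from under 20 UMIs are left out. In the first panel *Myh11*, *Des* and *Lmod1* stand apart at 26.0-fold or more, and the other 7 genes lie between 1.79-fold and 6.28-fold.

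Within the *Rgs5*-high group the contractile genes varied widely from cell to cell. The median cell had 30.6 *Acta2* UMIs per 10000 at day 10, with quartiles at 14.0 and 46.5, and 18.3 at day 14, with quartiles at 3.31 and 54.5. *Des* had a median of 2.77 per 10000 at day 10, with quartiles at 1.46 and 4.14. At day 14 its median was 3.07, with quartiles at 1.13 and 5.20. *Myh11* had a median of 0.804 and 1.31 per 10000. No UMI of *Acta2* was seen in 5 of 70 cells at day 10 and 30 of 192 at day 14, and no UMI of *Myh11* in 28 and 67 cells. The pericyte group therefore held cells with much *Acta2* and cells with none seen.

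After each cell was thinned to 2000 UMIs, which puts cells of unequal depth on the same footing, 89.7% (79.9 to 95.8) of *Rgs5*-high cells at day 10 and 72.5% (65.5 to 78.7) at day 14 had an *Acta2* UMI. The unthinned shares were 92.9% and 84.4%. In *Scx*+ cells the thinned shares were 50.4% (47.0 to 53.8) and 39.0% (36.8 to 41.1), and in *Scx*- cells 27.7% (23.6 to 32.0) and 20.8% (18.5 to 23.4). *Cnmd*-high cells had 1.95% (1.43 to 2.59) and 2.87% (2.04 to 3.92) after thinning and 15.8% and 20.1% before it, and they were the deepest group. The order of the groups was the same for shares of cells as for CPM.

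For *Des* the thinned share was 45.6% (33.5 to 58.1) and 45.0% (37.7 to 52.4) of *Rgs5*-high cells, and it was 1.62% and 1.31% of *Scx*+ cells against 0.552% and 0.453% of *Cnmd*-high cells. For *Myh11* it was 27.9% (17.7 to 40.1) and 28.6% (22.2 to 35.6) of *Rgs5*-high cells and at most 0.0903% of any other of the 4 groups. The *Lmod1* share was 19.1% (10.6 to 30.5) at day 10 and 7.41% (4.11 to 12.1) at day 14. Each of these 3 genes was thus met in a minority of *Rgs5*-high cells at this reduced depth, and unthinned in 84.3% and 84.9% for *Des*, 60.0% and 65.1% for *Myh11*, and 44.3% and 32.8% for *Lmod1*.

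**Figure D3:**
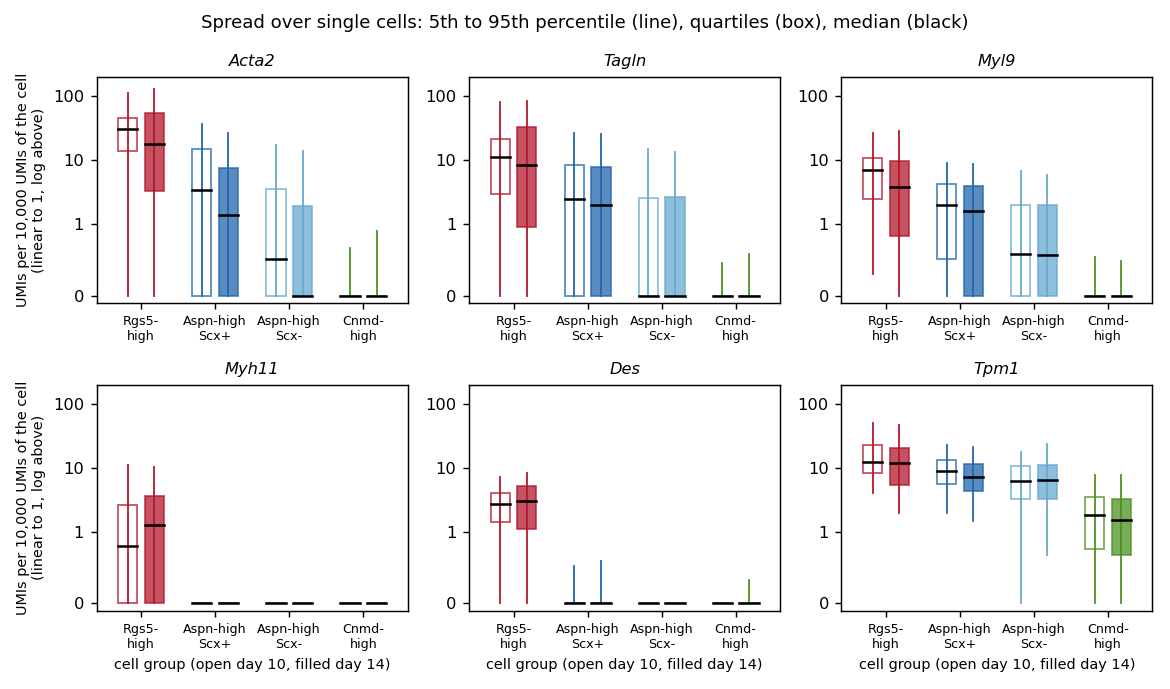
UMIs per 10000 UMIs of a cell (linear up to 1 and log above) of *Acta2*, *Tagln*, *Myl9*, *Myh11*, *Des* and *Tpm1* in the 4 groups at day 10 and day 14, with a line from the 5th to the 95th percentile, a box for the quartiles and a black bar for the median. The *Acta2* box of *Rgs5*-high cells widens from 14.0 to 46.5 at day 10 to 3.31 to 54.5 at day 14, and the upper part of the *Scx*+ range, with a 95th percentile of 36.5 at day 10, reaches into it.

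Across the *Rgs5*-high cells *Acta2* varied with most of the other members. Spearman's rho of *Acta2* per 10000 with *Tagln* was 0.665 over 70 cells at day 10 and 0.835 over 192 cells at day 14, with *Actg2* 0.755 and 0.778, with *Myl9* 0.692 and 0.834, and with *Tpm2* 0.616 and 0.816. It was lower with *Cnn1*, 0.492 and 0.500, with *Lmod1*, 0.482 and 0.472, and with *Myh11*, 0.480 and 0.481, and lowest with *Des*, 0.0839 and 0.183. *Acta2* showed almost no relation to *Rgs5* itself, -0.0450 and 0.0668. These are descriptions over cells of 1 library each, which share their depth, and rho of *Acta2* with the UMIs per cell was 0.274 and 0.301. In *Scx*+ cells rho of *Acta2* with *Tagln* was 0.667 over 864 cells and 0.602 over 1990 cells.

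*Kcnj8* and *Abcc9* encode the subunits of a potassium channel that marks pericytes more than arterial smooth muscle cells. Of the *Rgs5*-high cells, 63 of 70 at day 10 and 174 of 192 at day 14 had a UMI of either gene, and the remaining 7 and 18 cells are too few for a fold. *Myh11* was 194 CPM (166 to 226) in the cells with the channel genes and 922 CPM (698 to 1195) in those without at day 10. At day 14 it was 247 CPM (225 to 270.2) against 326 CPM (247 to 423), and these intervals overlapped. *Acta2* was 4519 against 5370.2 CPM at day 10 and 3918.5 against 6827 CPM at day 14. *Des* was 319.9 CPM (283 to 360.3) against 146 CPM (66.6 to 276) at day 10, and 335 (309 to 362) against 320.5 CPM (242 to 416) at day 14, where the intervals overlapped. *Rgs5* was 10081 against 7521.5 CPM and 11063 against 7708 CPM. The levels of *Acta2* and *Tagln* were higher in the cells without a channel UMI on both days, with *Tagln* at 1890.1 against 3753 CPM and 2171 against 3582 CPM. The *Myh11* intervals lay apart at day 10 only, and they cover counting error, not the spread between cells. The 7 cells without a channel UMI held 57 *Myh11* UMIs at day 10, while 33 was the most in any 1 *Rgs5*-high cell of that day. Whether that cell was among the 7 was not tested. The 7 cells were also shallower, with a median of 10101 UMIs against 12678.

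At day 14, 15 cells were both *Rgs5*-high and *Aspn*-high, and day 10 had none. Their levels were 929.8 CPM for *Acta2*, 73.1 for *Myh11* and 173 for *Des*. All 3 values lie between those of the *Rgs5*-high and the *Scx*+ cells. Whether these barcodes held 1 cell or a pair of cells was not tested, since no doublet caller was run.

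*Aspn*-high cells with a *Scx* UMI had more of the actins and their partners than those without. *Scx*+ cells exceeded *Scx*- cells 2.65-fold (2.54 to 2.77) at day 10 and 2.49-fold (2.41 to 2.58) at day 14 for *Acta2*. The ratio was 3.47-fold (3.02 to 3.996) and 2.78-fold (2.55 to 3.04) for *Actg2*, and 2.13-fold (2.02 to 2.24) and 2.38-fold (2.30 to 2.47) for *Tagln*. *Myl9* was 2.03-fold (1.88 to 2.18) and 1.88-fold (1.79 to 1.98) higher. *Cnn1* was 3.22-fold (2.43 to 4.33) and 4.18-fold (3.18 to 5.60) higher, the widest gap of these genes at day 14. *Tpm2* had the narrowest gap of them on both days, 1.83-fold (1.74 to 1.92) and 1.62-fold (1.57 to 1.67).

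The remaining members differed less or were thinly counted. *Tpm1* was 1.32-fold (1.27 to 1.36) higher at day 10 and 1.04-fold (1.01 to 1.06) at day 14. The ratio of *Des* was 1.41-fold (0.950 to 2.13) and 1.55-fold (1.19 to 2.04), so its interval took in equality at day 10, and with groups cut at 10 UMIs per 10000 its log2 ratio at day 10 turned to -0.14. *Lmod1* was at 1.18-fold (0.665 to 2.19) at day 10 and 3.80-fold (1.16 to 19.7) at day 14, the second from 25 against 3 UMIs. *Myh11* had too few UMIs for a ratio.

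Of the 9 members with at least 20 UMIs, 5 were at least 2-fold higher in *Scx*+ cells on each day, *Acta2*, *Tagln*, *Actg2* and *Cnn1* on both days, *Myl9* at day 10 and *Lmod1* at day 14. *Lmod1* passed the limit of 20 UMIs at day 14 through its 25 UMIs in *Scx*+ cells, and its log2 ratio went from 1.93 to 0.06 with groups cut at 10 UMIs per 10000. Among all tested genes 1.15% of 12482 were that much higher at day 10 and 0.845% of 13724 at day 14. No member was at least 2-fold lower, where 2.55% and 2.79% of all genes were. *Scx*+ cells were deeper than *Scx*- cells, and a cell with more UMIs is more likely to show a *Scx* UMI, so the groups also differ in depth. With *Scx* read at a common depth of 5000 UMIs, the log2 ratio of *Acta2* was 1.16 at day 10 and 1.03 at day 14, and that of *Myl9* 0.88 and 0.73.

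*Acta2*, *Tagln* and *Cnn1* were also compared over the *Scx* level, in bins that were chosen after the values had been seen. *Aspn*-high cells were placed in 4 bins by their *Scx* UMIs per 10000, namely 0, over 0 to 2, over 2 to 5, and over 5, with 456, 425, 287 and 152 cells at day 10 and 1119, 996, 657 and 337 at day 14. *Acta2* was 398, 735, 1127 and 1809 CPM in these bins at day 10 and 266, 449, 742 and 1235 CPM at day 14. *Tagln* was 318, 477, 677 and 1212 CPM at day 10 and 270.4, 443, 697 and 1239 CPM at day 14. *Cnn1* was 9.40, 16.3, 34.1 and 61.4 CPM at day 10 and 4.13, 8.28, 20.1 and 42.5 CPM at day 14. Each of these 3 genes was higher in every bin than in the bin before it on both days, and the *Cnn1* level of the top bin at day 10 lay within the interval of the *Rgs5*-high level.

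*Tpm1* varied less, from 777 to 1188 CPM at day 10 and from 846 to 929 CPM at day 14. *Des* was 13.8 and 12.3 CPM in the top bin, far below the *Rgs5*-high level, and *Myh11* had no UMI in the cells of the 2 top bins on either day. The level of *Aspn*, which chose these cells, was 5192 CPM in the bin without *Scx* and 5091 CPM in the top bin at day 10, and 4911 and 6249 CPM at day 14. The tendon gene *Tnmd* went from 263 to 536 CPM and from 257 to 831 CPM. Median UMIs per cell ran from 12727.5 to 17322 over the bins at day 10 and were 12045 and 13057 in the first and last bin at day 14.

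**Figure D4:**
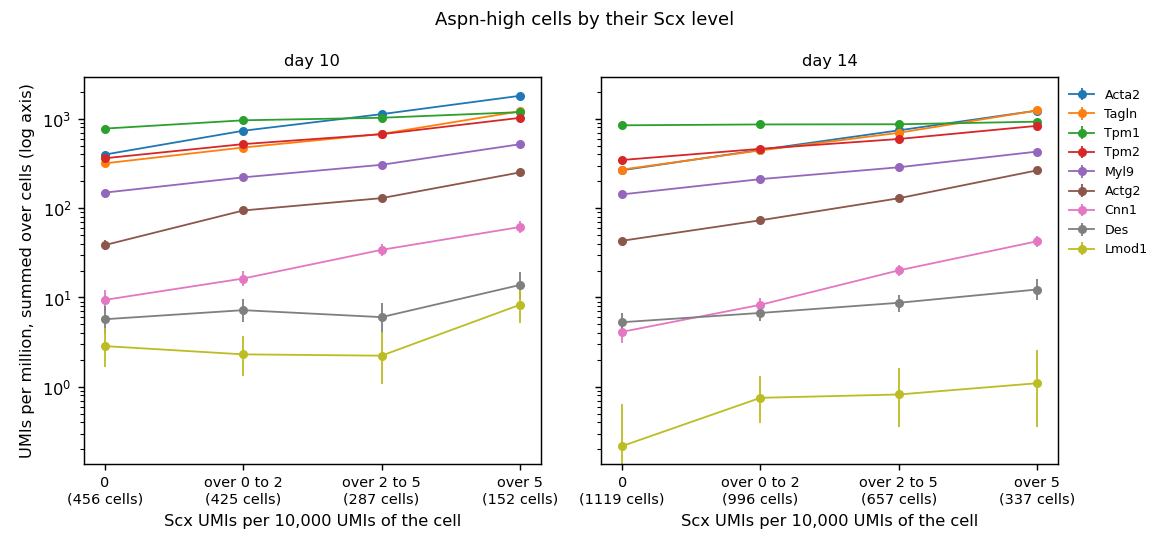
CPM (log axis) of 9 contractile genes, all but *Myh11*, in *Aspn*-high cells placed in 4 bins by *Scx* UMIs per 10000, at day 10 and day 14. *Acta2* goes from 398 to 1809 CPM at day 10 and from 266 to 1235 CPM at day 14, while *Tpm1* stays between 846 and 929 CPM at day 14.

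*Scx*+ cells and *Scx*- cells both stood above the *Cnmd*-high chondrocytes. For *Scx*+ cells, 9 of 9 tested members were at least 2-fold higher on both days, against 19% and 20.1% of all genes higher and 8.85% and 7.62% lower. *Lmod1* passed the limit of 20 UMIs through its *Scx*+ UMIs alone, with 47 against 7 at day 10 and 25 against 3 at day 14. *Acta2* was 98.6-fold and 43.3-fold above *Cnmd*-high cells, and *Des*, the least different, 2.73-fold (2.11 to 3.53) and 2.31-fold. For *Scx*- cells, 8 of 9 tested members at day 10 and 7 of 8 at day 14 were at least 2-fold higher, against 20% and 22.1% of all genes higher and 7.11% and 6.44% lower. The exception was *Des* on both days, at 1.94-fold (1.29 to 2.85) and 1.49-fold (1.09 to 2.03). With groups cut at 40 UMIs per 10000 its log2 ratio turned to -0.26 and -0.041.

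The cells with the most *Acta2* were for the most part not *Rgs5*-high. At a level of at least 10 *Acta2* UMIs per 10000, a cut chosen after the values had been seen, there were 623 cells at day 10 and 783 at day 14. *Rgs5*-high cells were 55 of them (8.83%) at day 10 and 112 (14.3%) at day 14, although 78.6% (67.1 to 87.5) and 58.3% (51.0 to 65.4) of *Rgs5*-high cells passed the cut. *Scx*+ cells were 291 (46.7%) and 397 (50.7%), from 33.7% (30.5 to 36.9) and 19.9% (18.2 to 21.8) of their group. *Scx*- cells were 54 and 87, *Cnmd*-high cells 0 and 1, and cells of none of the named groups 215 (34.5%) and 173 (22.1%).

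Counted in UMIs, *Scx*+ cells held 45.3% of all *Acta2* UMIs of the library at day 10 and 47.3% at day 14, and *Rgs5*-high cells 12.8% and 20.5%. *Scx*+ cells held 47.4% and 56.7% of the *Tagln* UMIs and 43.1% and 59.3% of the *Cnn1* UMIs. The shares of *Rgs5*-high cells were larger for *Des*, 30.5% and 47.7%, and for *Lmod1*, 34.0% and 51.3%, and largest for *Myh11*. Most *Acta2* and *Tagln* UMIs thus came from cells outside the *Rgs5*-high group, and most *Myh11* UMIs from within it.

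**Figure D5:**
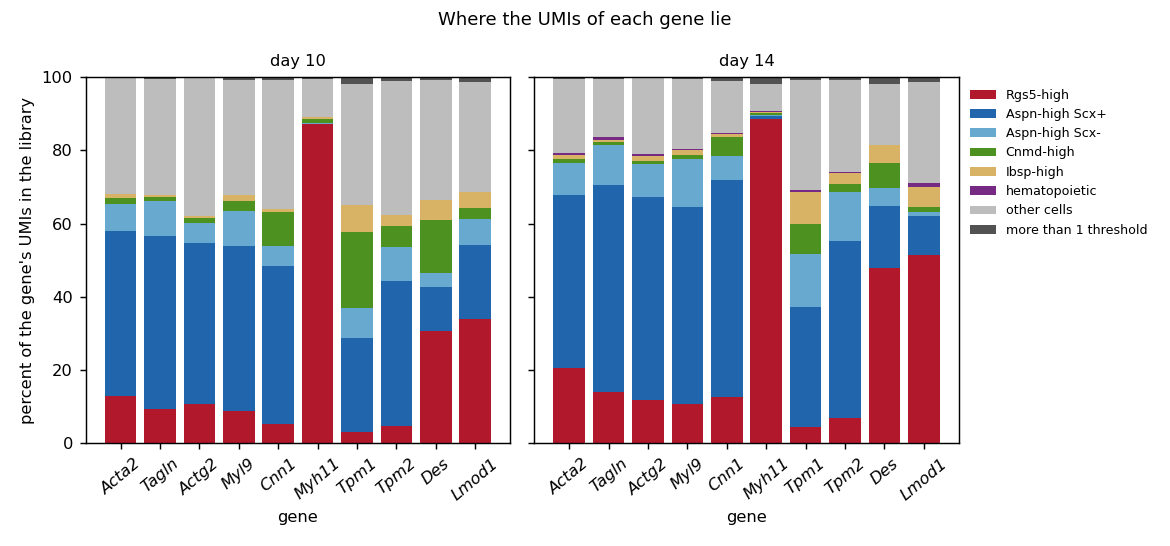
Percent of all UMIs of each of the 10 genes that came from each group of cells, stacked, at day 10 and day 14. *Scx*+ cells hold 45.3% and 47.3% of the *Acta2* UMIs, and *Rgs5*-high cells hold 87.1% and 88.6% of the *Myh11* UMIs.

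The upper range of *Scx*+ cells reached the median of the pericytes for *Acta2* but not for *Myh11*. At day 10, 26.7% of *Scx*+ cells (231 of 864) were at or above the lower quartile of *Rgs5*-high cells and 8.10% at or above their median, and 7.89% and 1.32% of *Scx*- cells were. At day 14, when the lower quartile stood at 3.31 per 10000, the shares were 38.0% and 10.2% of *Scx*+ cells and 19.0% and 3.04% of *Scx*- cells. No *Scx*+ or *Scx*- cell reached the *Rgs5*-high median of *Myh11* on either day. The lower quartile of *Myh11* was 0 in *Rgs5*-high cells on both days and could not be used. For *Des*, 1 *Scx*- cell did at day 10, and 1 *Scx*+ and 1 *Scx*- cell at day 14.

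Between day 10 and day 14 the members differed by less than 2-fold in *Rgs5*-high cells. The ratio of day 14 to day 10 was 0.910 (0.876 to 0.944) for *Acta2*, 1.14 (1.08 to 1.20) for *Tagln* and 1.04 (0.889 to 1.22) for *Myh11*. The lowest was that of *Lmod1*, 0.657 (0.491 to 0.883), and the next lowest that of *Actg2*, 0.747 (0.664 to 0.842). The day 10 level of *Actg2* rests in part on 1 cell, which held 137 of its 447 UMIs. Against these ratios of the members, 4.9% of 9060 genes were at least 2-fold higher and 2.63% at least 2-fold lower at day 14.

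In *Scx*+ cells *Acta2* was 1.59-fold lower at day 14, a ratio of 0.627 (0.614 to 0.641), and *Cnn1* had a ratio of 0.571 (0.501 to 0.650), whereas *Tagln* had a ratio of 0.955. *Lmod1* was 4.08-fold lower, with 47 UMIs at day 10 and 25 at day 14, and was the 1 of 9 tested members past 2-fold, against 2.73% of all genes higher and 3.46% lower. In *Scx*- cells *Acta2* had a ratio of 0.667. *Cnn1* was 2.28-fold lower and *Lmod1* 13.1-fold lower there, the second on 17 and 3 UMIs, so that 2 of 9 members were past 2-fold downwards and none upwards, against 2.45% of all genes lower and 2.64% higher. In *Cnmd*-high cells *Acta2* was at 1.43 (1.25 to 1.63) and *Tagln* at 1.84 (1.54 to 2.20) of its day 10 level, and none of 8 tested members was past 2-fold, against 2.36% of all genes higher and 2.62% lower.

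Day 7 had too few cells of the fibroblastic groups for a fold. In its 11 *Scx*+ cells *Acta2* was at 354 CPM, *Tagln* at 211 CPM and *Tpm1* at 780.4 CPM, while *Myh11*, *Des* and *Lmod1* had 0 UMIs. The 7 *Scx*- cells had 141 CPM of *Acta2* and 132 CPM of *Tagln*, and the 56 *Cnmd*-high cells had 4 *Acta2* UMIs. *Myh11* had 0 UMIs in every group at day 7. The 6546 *Ptprc*-positive cells held 1504 *Acta2* UMIs in 1028 cells, a level of 30.2 CPM, and 131 *Tagln* UMIs, of which 4 cells held 87. After thinning, 8.13% of these blood cells had an *Acta2* UMI and 0.324% a *Tagln* UMI.

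Other genes of the smooth muscle program were read from a list of 27 symbols, of which 25 matched. *Mkl1* and *Mkl2* had no match. Between *Rgs5*-high and *Scx*+ cells, 11 of 23 tested genes were at least 2-fold higher on each day, none at least 2-fold lower at day 10 and 1, *Csrp2*, at day 14, with median log2 ratios of 0.90 and 0.95. Between *Scx*+ and *Scx*- cells, 1 of 21 was at least 2-fold higher at day 10, *Csrp1* at 2.05-fold, and none at day 14. The percentages of all genes past 2-fold in these comparisons are those given above for the members.

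*Mylk*, the kinase that phosphorylates the regulatory light chain, was 645 CPM in *Rgs5*-high cells, 42.9 in *Scx*+ cells and 72.4 in *Scx*- cells at day 10, and 630.4, 34.5 and 46.7 CPM at day 14. It was thus 15.0-fold and 18.3-fold higher in *Rgs5*-high than in *Scx*+ cells, and on both days *Scx*- cells had the higher level of the 2 *Aspn*-high groups. *Ppp1r14a*, which encodes an inhibitor of the phosphatase that reverses this step, was 412 and 353 CPM in *Rgs5*-high cells and at most 1.52 CPM in the other 3 groups. *Kcnmb1*, a potassium channel subunit of smooth muscle, was 42.8 and 22.6 CPM in *Rgs5*-high cells and at most 0.14 CPM elsewhere. *Mylk*, *Ppp1r14a* and *Kcnmb1* thus lay with *Myh11*, *Des* and *Lmod1*, not with the actins.

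*Myocd* encodes myocardin, the smooth muscle cofactor of serum response factor. It had 7 UMIs in 6 of 70 *Rgs5*-high cells at day 10 and 15 UMIs in 15 of 192 at day 14, which are 7.68 and 7.20 CPM, and at most 0.34 CPM in the other 3 groups. *Srf*, the gene of the factor, was 20.8 CPM in *Rgs5*-high cells, 13.8 in *Scx*+ cells, 11.1 in *Scx*- cells and 6.49 in *Cnmd*-high cells at day 10, and 11.5, 9.98, 7.82 and 5.07 CPM at day 14. *Srf* was thus met in all 4 groups. *Myocd* had 1 UMI in *Scx*+ cells, 2 in *Scx*- cells and 1 in *Cnmd*-high cells at day 10, and 4, 0 and 0 at day 14, counts too low for a ratio.

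A list of cytoplasmic relatives of the contractile genes differed most from the chondrocytes. Over *Cnmd*-high cells, 10 of 13 tested relatives at day 10 and 9 at day 14 were at least 2-fold higher in *Rgs5*-high cells, against 30.2% and 24.8% of all genes. In *Scx*+ cells 11 were on both days, against 19% and 20.1% of all genes. *Tpm4*, a tropomyosin of non-muscle cells, was 1039 CPM in *Rgs5*-high cells, 587 in *Scx*+ cells, 423 in *Scx*- cells and 160.0 in *Cnmd*-high cells at day 10, the same order as *Acta2*. Between *Rgs5*-high and *Scx*+ cells, 1 of 13 tested relatives was at least 2-fold higher on each day, *Myl12b*, a light chain of non-muscle myosin, and 1 was lower at day 10, *Myh10*, and 2 at day 14, *Myh10* and *Cnn3*. The share that was higher, 7.69%, lay below the 12.1% and 14.3% of all genes, and the median log2 ratio was 0.22 and 0.28. *Actb*, the cytoplasmic beta-actin, was 5929 CPM in *Rgs5*-high cells and 4847 CPM in *Scx*+ cells at day 10. *Myh10*, a non-muscle myosin heavy chain, was 11.0 CPM in *Rgs5*-high cells and 58.1 CPM in *Scx*+ cells at day 10, the reverse of *Myh11*. Between *Scx*+ and *Scx*- cells none of the 13 passed 2-fold on either day, where 1.15% and 0.845% of all genes were higher and 2.55% and 2.79% lower.

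Striated muscle genes were near 0 in the same cells. *Actc1*, the cardiac actin, had 8 UMIs in 3 *Rgs5*-high cells at day 10 and 30 UMIs in 5 cells at day 14, of which 19 were in 1 cell. The skeletal muscle actin *Acta1* was at most 1.10 CPM in the 4 groups.

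The genes whose levels over the 8 groups of days 10 and 14 were most like those of a member were found among 3824 genes by Pearson's correlation of log2(CPM + 10). These 8 points come from 2 libraries. Among the members, *Myl9* was the most like *Acta2* and lay among its 5 most alike genes. *Tagln* ranked 15, *Actg2* 18, *Tpm1* 22 and *Tpm2* 53, whereas *Cnn1* ranked 397, *Des* 1350 and *Myh11* 1554. The order among the closest members depended on the 10 CPM added. With 1 CPM added, *Actg2* was the member most like *Acta2*, at rank 5, and *Myl9* ranked 12. The genes most like *Myh11* were the pericyte genes *Abcc9* and *Higd1b*, followed by *Trpc6*, *Cbfa2t3* and *Gja4*, with *Des* at rank 31, *Lmod1* at rank 82 and *Cnn1* at rank 687. With 1 CPM added in place of 10, 2 of these 5 genes stayed among the 5 most alike, *Des* ranked 47 and *Lmod1* 156. *Cnn1* was more like *Acta2* than *Myh11* by this measure, with a correlation of 0.938 against 0.807. With 1 CPM added these were 0.956, at rank 262, and 0.725, at rank 917.

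The genes lie apart in the genome, on GRCm38 with GENCODE M21 gene models. *Acta2* is on chromosome 19 (34241090 to 34255590, minus strand), *Actg2* on chromosome 6 (83512905 to 83536265, minus), *Myl9* on chromosome 2 (156775420 to 156781658, plus) and *Myh11* on chromosome 16 (14194535 to 14291372, minus). *Tagln* (45929619 to 45936058, minus), *Cnn1* (22099216 to 22109630, plus) and *Tpm1* (67022590 to 67049406, minus) are on chromosome 9, far from one another. *Tpm2* is on chromosome 4 (43514711 to 43523765, minus), and *Des* (75360329 to 75368579, plus) and *Lmod1* (135324807 to 135368065, plus) are on chromosome 1. *Tagln* overlaps *Pcsk7* on the opposite strand, and reads of such overlapping genes are told apart only by strand.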

How the data were processed

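Live CD45-CD31-TER119- cells of mouse fracture callus were measured by droplet 3′ single-cell RNA sequencing, with 1 library for each of day 7, day 10 and day 14. The authors aligned the reads to mm10 with Cell Ranger (version 3.0 per the labels) and deposited raw UMI counts, which had not been normalized, for 9103, 8801 and 12984 barcodes. Kept cells had 500 to 5000 genes, at most 10% mitochondrial UMIs and at most 5% hemoglobin UMIs. No doublet caller was run.

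Groups were set at 20 UMIs per 10000 of *Rgs5*, *Aspn* or *Cnmd*. Cells with at least 1 *Ptprc* UMI were counted as hematopoietic, and cells with at least 200 *Ibsp* UMIs per 10000 as a reference group. UMIs were summed over the cells of a group and given as CPM with exact Poisson intervals. Ratios carry exact binomial intervals and shares Clopper-Pearson intervals, all at 95%. A ratio was read as past 2-fold only with at least 20 UMIs in both groups together, and groups under 50 cells got no fold. With 1 library a day, no test and no p-value was possible. The 10 genes and the gene lists were chosen with earlier results of these data known. Genes were named as members, as list genes of known role, and as the 5 most alike, a list not reported here for *Acta2*. The counting code was tested on simulated data. Python 3.11.15 with numpy 2.4.6, scipy 1.17.1, pandas 2.3.3 and matplotlib 3.10.9 was used. Alternatives covered the group cut, *Scx* status, limits on cells and genes, fold and weighting.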

Additional observations from a re-analysis of the deposited data

Results flagged for a closer look

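The direction from day 10 to day 14 differed between groups of cells for 3 genes, counted where the intervals of 2 groups lay on opposite sides of no change, and the difference was not tested, since each day had 1 library and day and library cannot be told apart. For *Acta2* the log2 ratio of day 14 to day 10 was -0.14 in *Rgs5*-high cells, -0.67 in *Scx*+ cells and -0.58 in *Scx*- cells, but 0.51 in *Cnmd*-high cells. For *Tagln* it was 0.18 in *Rgs5*-high cells and 0.88 in *Cnmd*-high cells, but -0.067 in *Scx*+ cells and -0.23 in *Scx*- cells. For *Tpm1* it was 0.12 in *Scx*- cells, but -0.15 in *Rgs5*-high cells, -0.23 in *Scx*+ cells and -0.14 in *Cnmd*-high cells.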

How the results depend on the processing

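The counts of members past 2-fold were recomputed under 14 alternatives, which gave 220 values, of which 203 stayed within 1.5 times the count first given. Among 1736 recomputed ratios, none of those past 2-fold at first changed direction. Ratios not past 2-fold at first could not enter that count, and some of them changed sign. At a group cut of 40, for example, 138 of 147 ratios kept their sign. Of all 1736, 69 ratios moved by more than 1.5 times, 34 of them those of *Myh11* and *Lmod1*. The largest shift was 3.77 on the log2 scale, in *Myh11* of *Rgs5*-high over *Scx*- cells at day 14, from 10.77 to 7.00 at a group cut of 10. With a limit of 4-fold, the count fell from 7 to 4 for *Rgs5*-high over *Scx*+ cells at day 10, from 9 to 4 at day 14, from 5 to 0 for *Scx*+ over *Scx*- cells at day 10, from 5 to 1 at day 14, and from 2 to 1 for *Scx*- cells between days. With groups cut at 10 UMIs per 10000, *Scx*+ over *Scx*- cells gave 3 at day 10, and *Scx*+ cells between days gave 2. At that cut more *Rgs5*-high cells also passed another cut and were set apart. The 46 *Rgs5*-high cells left at day 10 were too few, so those comparisons could not be fitted. At a cut of 40, *Scx*- cells between days gave 0. *Scx*+ cells between days gave 2 without limits on cells or without the upper limit on genes, and 0 with at least 100 UMIs. *Scx*- cells between days gave 1 with *Scx* read at 5000 UMIs, without limits on cells, with the mean over cells, with cells of more than 1 group kept, and with at least 100 UMIs. *Cnmd*-high cells between days gave 1 in place of 0 with the mean over cells. The cause was not tested, apart from the stricter fold and UMI limits, which remove members by construction. The alternative without cells of at least 100 hematopoietic UMIs per 10000 was chosen after seeing the data and moved no count. No paired analysis was possible because each day had 1 library, and for the same reason no replicate could be left out. Depth limits *Myh11* and *Lmod1* outside *Rgs5*-high cells, where few UMIs set the level.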
